A study of Homo sapiens with 6 samples.

Results

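WNT, BMP, TGF-β, activin and FGF ligands and their receptors were represented by 86 protein-coding genes among the 60671 genes listed in the count data. They were chosen by gene symbol in GENCODE: WNT, FZD, BMP, BMPR, FGF, FGFR, TGFB, TGFBR, ACVR and INHB names followed by a number or letter, leaving out any name that contains OP. The names also took in BMP1, a secreted protease, BMP2K, an intracellular kinase, and FGF11, FGF12, FGF13 and FGF14, which stay inside the cell, so that 6 of the 86 genes are not secreted signals or surface receptors.

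WNT ligands are lipid-modified secreted proteins that bind Frizzled receptors and, through LRP co-receptors, stabilise β-catenin. TGF-β, activin and BMP ligands are dimers that bring together type I and type II receptor kinases, and the type I kinase then phosphorylates SMAD proteins. FGF ligands bind receptor tyrosine kinases that signal through the adaptors FRS2 and GRB2 to the MAP kinase cascade. Many genes of these families are switched on in restricted tissues during development and are classic targets of Polycomb repression, in which EZH2, the catalytic subunit of PRC2, methylates lysine 27 of histone H3. In blood-forming cells, TGF-β restrains progenitor growth and activins promote erythroid differentiation.

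The cells were K562, a human chronic myeloid leukemia line with erythroid features, as 1 clone carrying a doxycycline-inducible fusion of a Flag tag, a nuclear localisation signal, the GpC methyltransferase M.CviPI and Lamin-B1. Separate cultures received vehicle (DMSO at 0.1%, 3 libraries) or the EZH2 inhibitor GSK343 at 1 µM (EZH2i, 3 libraries) for 72 h. Both groups were given doxycycline at 1 µg/mL for the last 24 h, so the fusion was induced in all 6 libraries. The libraries were made with a 3′ tag method that reads each messenger RNA next to its poly(A) tail. For the vehicle libraries 1 to 3, genes received 6327544, 8711246 and 8987768 reads, and for the inhibitor libraries 1 to 3 they received 7273739, 7913358 and 6926167. EZH2i replicate 3 had 12.7% of its listed reads on no gene, against 7.43% to 8.51% in the other libraries. Levels are given as CPM, counts scaled to library size with TMM factors, with the SD over 3 libraries, and are compared between treatments and not between genes.

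Most of the ligand genes had few or no reads, and most of the receptor genes were expressed. Of the 86 genes, 28 (32.6%) passed the filter on low counts and were tested, 9 (10.5%) had 10 or more reads over the 6 libraries but did not pass, 24 (27.9%) had 1 to 9 reads and 25 (29.1%) had 0 reads. Over all 19911 protein-coding genes the same shares were 53.5%, 7.42%, 13.9% and 25.2%. Among the ligands, 3 of 19 WNT genes, 1 of 10 BMP genes, 1 of 3 TGF-β genes, 1 of 4 inhibin β subunit genes and 2 of 18 secreted FGF genes were tested. Among the receptors, 6 of 10 Frizzled genes, 5 of 7 type I and 3 of 4 type II receptor genes of the TGF-β family, and 3 of 4 FGF receptor genes were tested, as was TGFBR3, the co-receptor betaglycan. The 4 genes for intracellular FGF homologous factors, FGF11 to FGF14, had 0 reads in all 6 libraries. A gene with 0 reads in a group could still be present at up to 0.127 CPM in DMSO or 0.135 CPM in EZH2i, the level that 3 reads over the group would give, a limit that covers counting error only.

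**Figure D1:**
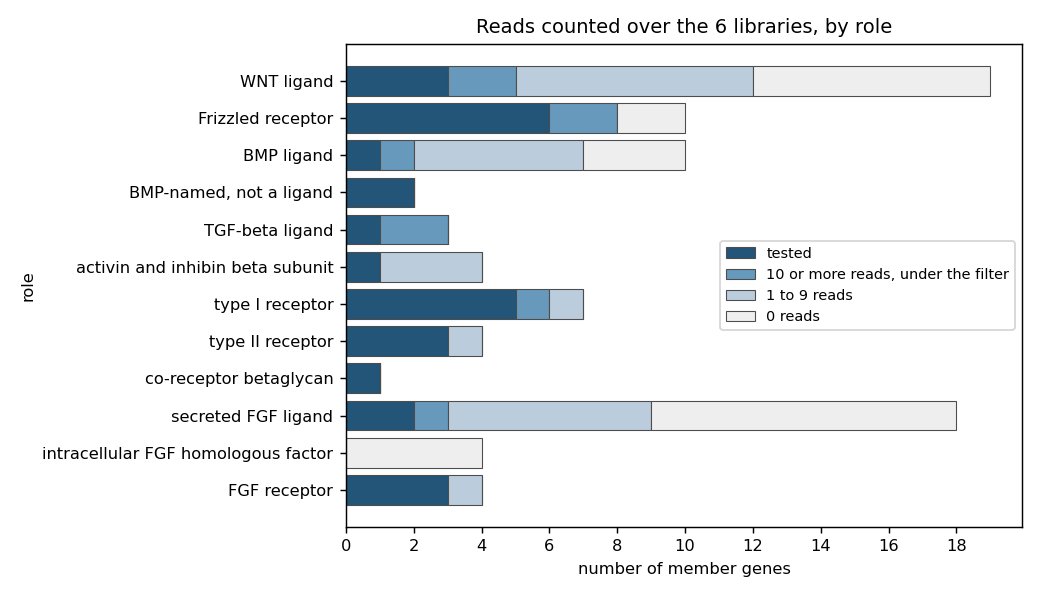
Number of genes in each role (horizontal axis) by the reads counted over the 6 libraries, with dark bars for genes that passed the filter on low counts. Frizzled, type I, type II and FGF receptor genes were mostly tested, whereas 16 of 19 WNT and 16 of 18 secreted FGF ligand genes were not.

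After EZH2 inhibition, 3 of the 28 tested genes rose and 1 fell at an adjusted p under 0.05 (edgeR quasi-likelihood test, Benjamini-Hochberg over 12364 genes). ACVR1C, a type I receptor, TGFB1, the founding TGF-β ligand, and BMP2K, a kinase named for its induction by BMP2, were higher, and INHBE, the βE subunit of activin E, was lower. Over all 12364 tested genes, 413 (3.34%) were called higher and 114 (0.922%) lower. The number of these genes called higher was 2 without DMSO replicate 1 or DMSO replicate 3 and 1 without DMSO replicate 2, and the gene called lower was no longer called in 5 of 6 fits that left out a library. Over all genes, leaving out DMSO replicate 1, 2 or 3 gave 180, 189 and 185 higher and 33, 20 and 55 lower. The median log2 fold change (EZH2i over DMSO) of the 28 tested genes was 0.0869, beside -0.000215 for all tested genes, and 19 of the 28 (67.9%) lay above 0, beside 50% of all tested genes. That median was 0.218 without DMSO replicate 1 and also without EZH2i replicate 1. The genes were chosen with earlier results of these data known, so these shares and medians are a description. The 3 libraries of a treatment did not overlap with those of the other for 10 genes that were higher in EZH2i and 2 that were lower, where all tested genes gave 13.3% higher and 11.1% lower. In bulk RNA, a different share of expressing cells and a different amount of RNA per cell cannot be told apart.

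**Figure D2:**
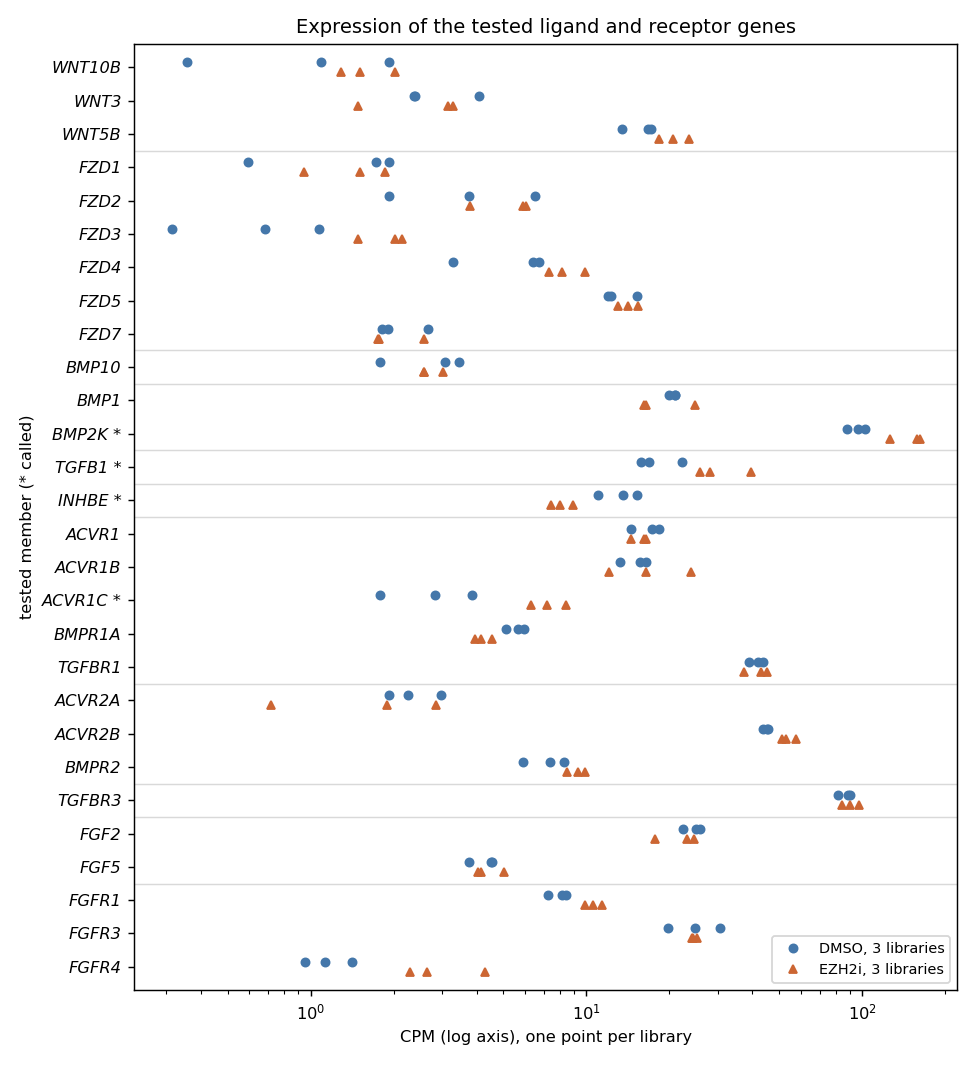
CPM on a log axis for each of the 28 tested genes, 1 point per library (circles DMSO, triangles EZH2i), with lines between roles and stars on called genes. For ACVR1C, TGFB1 and BMP2K all EZH2i points lie to the right of all DMSO points, and for INHBE they lie to the left.

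Promoter sequences were taken for the called genes that had an entry, ACVR1C and TGFB1, and for the ligand genes with 0 reads that had the most and the fewest CG dinucleotides, WNT3A and BMP5, because CG-dense promoters are the usual landing sites of Polycomb complexes. Each is the 250 bases before the RefSeq start on GRCh38.p14, written 5′ to 3′ on the gene's own strand, with every CG in capitals. They lie at chr2:157628865-157629114 (minus strand, ACVR1C), chr19:41353923-41354172 (minus, TGFB1), chr1:228006748-228006997 (plus, WNT3A) and chr6:55875591-55875840 (minus, BMP5).
ACVR1C: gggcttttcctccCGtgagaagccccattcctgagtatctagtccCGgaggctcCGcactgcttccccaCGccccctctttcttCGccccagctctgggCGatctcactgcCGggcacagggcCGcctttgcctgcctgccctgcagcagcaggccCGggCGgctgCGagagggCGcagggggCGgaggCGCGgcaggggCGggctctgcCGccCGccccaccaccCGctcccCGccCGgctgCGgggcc
TGFB1: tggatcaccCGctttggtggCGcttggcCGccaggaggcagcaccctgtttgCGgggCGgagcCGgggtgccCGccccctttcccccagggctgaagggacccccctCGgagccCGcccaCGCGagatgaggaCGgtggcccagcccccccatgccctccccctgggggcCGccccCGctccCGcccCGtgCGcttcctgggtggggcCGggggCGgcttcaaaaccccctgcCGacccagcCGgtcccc
WNT3A: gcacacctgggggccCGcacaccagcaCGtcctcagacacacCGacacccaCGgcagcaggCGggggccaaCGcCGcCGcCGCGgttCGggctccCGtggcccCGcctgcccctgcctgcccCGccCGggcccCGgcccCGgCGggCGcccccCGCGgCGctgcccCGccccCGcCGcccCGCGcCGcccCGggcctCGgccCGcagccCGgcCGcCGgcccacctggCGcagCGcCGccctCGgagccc
BMP5: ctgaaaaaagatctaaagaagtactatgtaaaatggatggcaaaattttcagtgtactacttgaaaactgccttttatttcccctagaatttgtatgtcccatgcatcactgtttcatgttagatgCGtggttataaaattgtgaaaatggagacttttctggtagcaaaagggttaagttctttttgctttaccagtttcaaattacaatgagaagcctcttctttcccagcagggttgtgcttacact

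The ACVR1C window held 22 CG dinucleotides at 74.4% G+C, and the TGFB1 window held 21 at 76.8%. WNT3A, a ligand of the β-catenin branch with 0 reads in every library, had 38 CG dinucleotides at 86.0% G+C. BMP5, a BMP ligand also at 0 reads, had 1 CG at 35.6% G+C and contained TATAAA, read on both strands, 118 bases before its start. That motif occurred in 9.22% of the 15325 protein-coding promoters of the same length and in 7 of the 63 members with an entry (11.1%), and a match is a description, not a site. A window was counted as CG-rich when its observed over expected CG ratio was at least 0.6 and its G+C at least 50%. By that measure ACVR1C was CG-rich with a ratio of 0.64 and TGFB1 was not, with a ratio of 0.58. CG-rich windows were found for 15 of 20 tested members (75.0%, beside 80.6% of tested protein-coding genes), 13 of 19 members with 1 to 9 reads (68.4%, beside 40.9%) and 8 of 16 members with 0 reads (50%, beside 27.4%). Among the 8 members with 10 or more reads that did not pass the filter, 7 were CG-rich (87.5%, beside 48.6%).

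**Figure D3:**
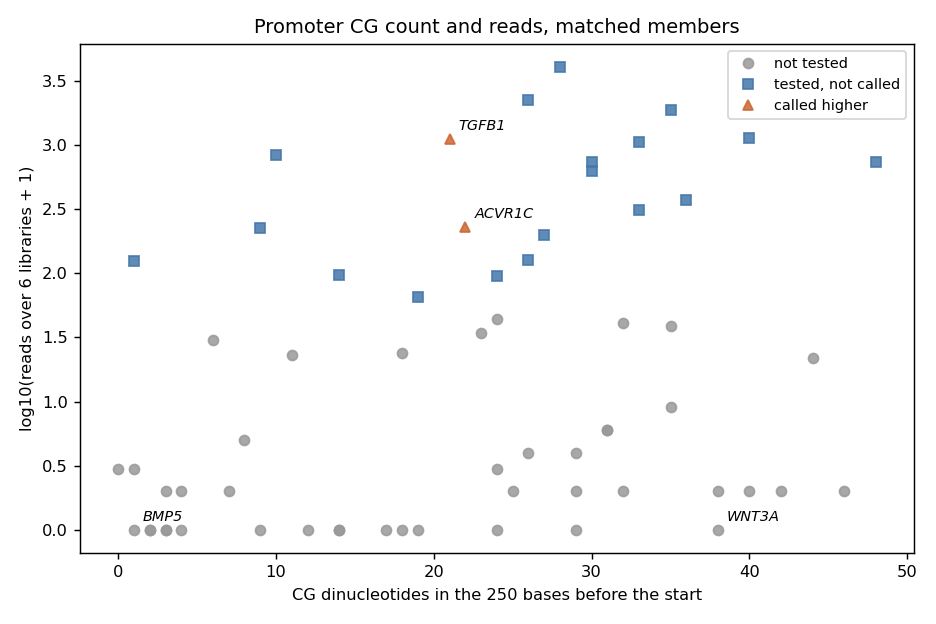
CG dinucleotides in the 250 bases before the start (horizontal axis) against log10 of reads over 6 libraries plus 1, for the 63 genes with a promoter entry. Genes with 0 reads span 1 CG (BMP5) to 38 CG (WNT3A), and the called genes ACVR1C and TGFB1 lie at 22 and 21.

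Among the TGF-β ligands, TGFB1 (ENSG00000105329, chr19:41301587-41353922) was counted at 22.2, 15.8 and 16.9 CPM in the DMSO libraries and at 39.4, 28.1 and 25.9 CPM in the EZH2i libraries. All EZH2i libraries lay above all DMSO libraries, with EZH2i replicate 1 standing above the other two. The mean moved from 18.3 ± 3.43 to 31.2 ± 7.24 CPM (SD, n = 3), a log2 fold change of 0.78 with a standard error of 0.176 (edgeR adjusted p = 0.0187). Leaving out DMSO replicate 2 gave an adjusted p of 0.114 and leaving out DMSO replicate 3 gave 0.0845, in a range of 0.000205 to 0.114 over 12 alternative fits. An exon of TGFB1 overlaps HNRNPUL1 on the opposite strand, and whether counting used strand was not stated, so reads of the overlap cannot be assigned with certainty. TGFB2 and TGFB3, the other ligands of this subfamily, stayed under the filter with 0, 6 and 7 reads in DMSO and 0, 5 and 4 in EZH2i for TGFB2. TGFB3 had 4, 8 and 6 reads in DMSO and 2, 7 and 2 in EZH2i, and the treatments overlapped for both genes.

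INHBE (ENSG00000139269, chr12:57452323-57459280), which encodes the subunit of the hepatokine activin E, was counted at 13.6, 11 and 15.3 CPM in DMSO and at 8.94, 7.44 and 8.02 CPM in EZH2i. Every EZH2i library was below every DMSO library. The mean went from 13.3 ± 2.15 to 8.13 ± 0.756 CPM (SD, n = 3), a log2 fold change of -0.71 with a standard error of 0.192 (edgeR adjusted p = 0.0444). The call was lost with DESeq2 (adjusted p = 0.0856), limma-voom (0.0553) and a filter of 10 counts in every library (0.0518). It was also lost without DMSO replicate 1 (0.126), DMSO replicate 2 (0.0557), DMSO replicate 3 (0.165), EZH2i replicate 2 (0.117) or EZH2i replicate 3 (0.089), and the range over 12 alternative fits was 0.0135 to 0.165. An unnamed long non-coding gene overlaps an INHBE exon on the opposite strand. INHBC, the neighbouring subunit gene that lies 260 bases away, had 1 read over the 6 libraries. The activin βA and βB subunit genes INHBA and INHBB, which make activins A and B, had 2 reads and 1 read.

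Of the BMP ligands, BMP10, best known from the heart and a ligand of ALK1, was the only one tested, at 3.44, 1.78 and 3.06 CPM in DMSO and 2.57, 3.03 and 2.58 CPM in EZH2i. The treatments overlapped, with a log2 fold change of 0.00 whose sign turned with DESeq2 scaling. BMP8B, a ligand linked to germ cells and brown fat, had 4, 1 and 5 reads in DMSO and 11, 12 and 7 in EZH2i. All EZH2i libraries were above all DMSO libraries for BMP8B, a ratio of 3.18 after scaling to library size (95% exact conditional interval 1.51 to 7.29, counting error only), from counts too low for the test. An exon of BMP8B overlaps PPIE on the opposite strand. Its near copy BMP8A had 8 reads in all, and reads of such similar genes can be split between them. BMP2, BMP5 and BMP15 had 0 reads, and BMP3, BMP4, BMP6 and BMP7 had between 1 and 3.

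BMP2K (ENSG00000138756, chr4:78776342-78916365), a kinase of the endocytic adaptor-associated family, was counted at 102, 87.9 and 96.3 CPM in DMSO and at 126, 162 and 158 CPM in EZH2i. The lowest EZH2i library, replicate 1, was above the highest DMSO library. BMP2K rose from 95.5 ± 7.32 to 149 ± 20.1 CPM (SD, n = 3), a log2 fold change of 0.64 with a standard error of 0.116 (edgeR adjusted p = 0.00449). It was called in each of the 12 alternative fits, at adjusted p from 3.79e-05 to 0.0394. An exon overlaps PAQR3 on the opposite strand. BMP1, the protease that trims procollagens and cleaves the BMP antagonist chordin, gave 19.9, 20.9 and 21 CPM in DMSO and 24.8, 16.5 and 16.2 CPM in EZH2i. EZH2i replicate 1 lay above the DMSO libraries and the other EZH2i libraries below them (log2 fold change -0.10). Leaving out EZH2i replicate 1, 2 or 3 gave BMP1 values of -0.33, -0.01 and 0.00.

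Among the type I receptors, ACVR1C (ENSG00000123612, chr2:157526767-157628864), or ALK7, a receptor for activins, Nodal and related GDFs, was counted at 2.82, 1.78 and 3.86 CPM in DMSO and at 8.40, 7.19 and 6.30 CPM in EZH2i. In reads these were 18, 15 and 34 against 62, 57 and 44. The EZH2i libraries were all above the DMSO libraries with a clear gap between them. ACVR1C rose from 2.82 ± 1.04 to 7.30 ± 1.05 CPM (SD, n = 3), a log2 fold change of 1.36 with a standard error of 0.289 (edgeR adjusted p = 0.0131). With DMSO replicate 1 left out the adjusted p was 0.0575, and with DMSO replicate 2 left out 0.0756, in a range of 0.000183 to 0.0756 over 12 alternative fits. ACVR1, or ALK2, a BMP receptor whose gene lies 107.4 kb from ACVR1C, gave 18.3, 17.3 and 14.5 CPM in DMSO and 14.5, 16.4 and 16.2 CPM in EZH2i. These overlapped, with a log2 fold change of -0.09.

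ACVR1B, or ALK4, the main activin type I receptor, gave 15.6, 16.4 and 13.2 CPM in DMSO and 12.1, 16.4 and 23.9 CPM in EZH2i. Its EZH2i libraries spread to both sides of the DMSO range, and the log2 fold change of 0.21 was -0.0764 without EZH2i replicate 3. TGFBR1, or ALK5, which signals for TGF-β, gave 43.5, 38.8 and 41.9 CPM in DMSO and 42.9, 37.2 and 45.3 CPM in EZH2i. The treatments overlapped closely (log2 fold change 0.01, with the sign turned by DESeq2). BMPR1A, or ALK3, a receptor for BMP2 and BMP4, gave 5.63, 5.94 and 5.11 CPM in DMSO and 3.93, 4.54 and 4.15 CPM in EZH2i. All its EZH2i libraries were below all its DMSO libraries, but the log2 fold change of -0.40 ± 0.246 (standard error) did not pass the test (edgeR adjusted p = 0.396). ACVRL1, or ALK1, the endothelial receptor for BMP9 and BMP10, had 2, 5 and 5 reads in DMSO and 9, 4 and 4 in EZH2i. BMPR1B had 2 reads in all.

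Of the type II receptors, ACVR2B, which binds activins and myostatin, gave 43.8, 45.5 and 45.1 CPM in DMSO and 51.2, 52.8 and 57.4 CPM in EZH2i. The libraries were tight within each treatment and did not overlap, at a log2 fold change of 0.26 ± 0.111 (standard error) that was not called (edgeR adjusted p = 0.197). BMPR2, the BMP type II receptor, gave 7.35, 8.31 and 5.90 CPM in DMSO and 8.53, 9.33 and 9.88 CPM in EZH2i. The treatments just failed to overlap (log2 fold change 0.37 ± 0.209, standard error, edgeR adjusted p = 0.353), and the log2 fold change was 0.23 without DMSO replicate 3. An unnamed protein-coding gene shares a BMPR2 exon on the same strand. ACVR2A, the other activin type II receptor, gave 2.97, 2.26 and 1.93 CPM in DMSO and 2.84, 1.89 and 0.716 CPM in EZH2i. Its treatments overlapped, with EZH2i replicate 3 the lowest library (log2 fold change -0.36, and 0.00444 without that library), and ORC4 overlaps its exon on the opposite strand. TGFBR2, the type II receptor that binds TGF-β itself, had 1 read over the 6 libraries, so the ligand gene TGFB1 and the type I gene TGFBR1 were counted while their type II partner was at the floor. The co-receptor gene TGFBR3, whose product presents TGF-β2 and inhibin to the receptors, gave 90.2, 81.4 and 89.1 CPM in DMSO and 84.1, 97.7 and 90.5 CPM in EZH2i. These overlapped (log2 fold change 0.06).

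**Figure D4:**
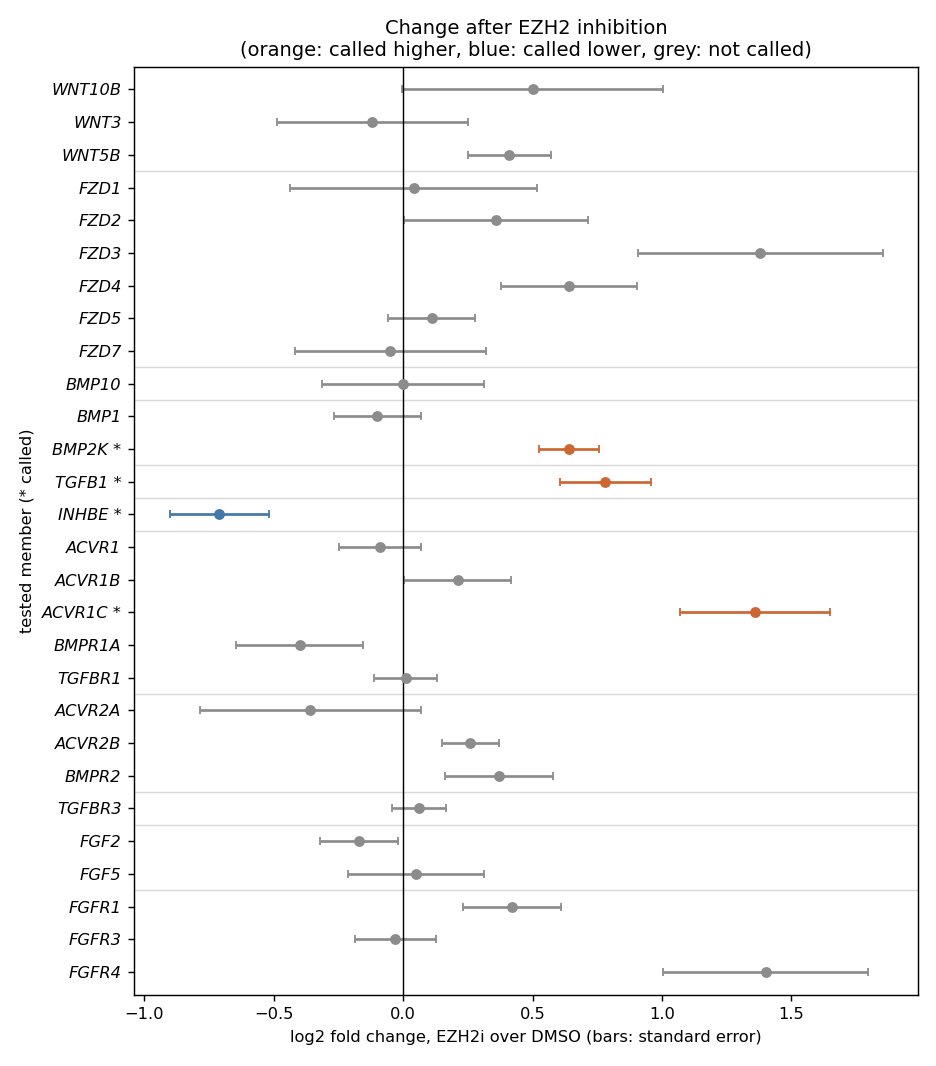
Log2 fold change (EZH2i over DMSO) of the 28 tested genes with standard error bars, in the order of roles, orange where called higher, blue where called lower and grey where not called. ACVR1C (1.36), TGFB1 (0.78) and BMP2K (0.64) lie to the right and INHBE (-0.71) to the left, and FZD3 and FGFR4 lie as far right as ACVR1C with longer bars.

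No WNT ligand or Frizzled gene was called with edgeR, DESeq2 or limma-voom, and 3 of the 9 tested had an unadjusted edgeR p under 0.05, all higher in EZH2i, beside 10.9% higher and 8.21% lower at that level among all tested genes. Of the 3, FZD3 entered the test only through its EZH2i libraries. WNT5B, a ligand of the β-catenin-independent branch, gave 16.7, 13.4 and 17.1 CPM in DMSO and 20.6, 18.4 and 23.6 CPM in EZH2i. All its EZH2i libraries were above its DMSO libraries (log2 fold change 0.41 ± 0.160, standard error, edgeR adjusted p = 0.167). WNT3, a canonical ligand whose gene has WNT9B 46 bases away, gave 4.07, 2.37 and 2.38 CPM in DMSO and 1.49, 3.15 and 3.29 CPM in EZH2i. The treatments overlapped, with a log2 fold change of -0.12 that turned positive when either replicate 1 was left out (0.151 for DMSO, 0.162 for EZH2i). WNT10B, a ligand active in bone and blood progenitors, gave 1.09, 0.356 and 1.93 CPM in DMSO and 2.03, 1.51 and 1.29 CPM in EZH2i, which overlapped (log2 fold change 0.50, but 0.05 without DMSO replicate 2 and 1.22 without DMSO replicate 3).

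WNT2B had 5, 2 and 0 reads in DMSO and 4, 9 and 3 in EZH2i, and WNT9A had 4, 3 and 1 in DMSO and 1, 6 and 6 in EZH2i. Both ligand genes overlapped between treatments, and ST7L overlaps a WNT2B exon on the opposite strand. WNT11 and WNT9B had 0 reads in DMSO, with 2, 1 and 1 reads for WNT11 and 0, 4 and 1 reads for WNT9B in EZH2i. WNT3A, WNT5A, WNT7B, WNT8A, WNT8B, WNT10A and WNT16 had 0 reads, and WNT1, WNT2, WNT4, WNT6 and WNT7A had 1 to 3.

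Of the Frizzled receptors, FZD3, which acts in axon guidance and planar polarity, gave 0.313, 1.07 and 0.681 CPM in DMSO and 1.49, 2.02 and 2.15 CPM in EZH2i. All EZH2i libraries were above the DMSO libraries (log2 fold change 1.38 ± 0.473, standard error), but the change was not called (edgeR adjusted p = 0.111). FZD3 was over the filter level of 1.32 CPM in 0 of 3 DMSO libraries and 3 of 3 EZH2i libraries, so it entered the test through the higher treatment. FZD4, the receptor for norrin in the retina, gave 6.72, 6.41 and 3.29 CPM in DMSO and 8.13, 7.31 and 9.88 CPM in EZH2i. The groups did not overlap, DMSO replicate 3 being the lowest library (log2 fold change 0.64 ± 0.263, standard error, edgeR adjusted p = 0.187), and the log2 fold change was 0.36 without that library. An exon of FZD4 overlaps PRSS23 on the opposite strand.

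FZD5, a receptor important in gut and eye, gave 15.3, 12.3 and 12 CPM in DMSO and 13.0, 15.4 and 14.2 CPM in EZH2i. FZD2 gave 3.75, 6.53 and 1.93 CPM in DMSO and 3.79, 6.05 and 5.87 CPM in EZH2i. The libraries of FZD2 and FZD5 overlapped between treatments, at log2 fold changes of 0.36 and 0.11. For FZD2, leaving out DMSO replicate 2 gave 0.93 and leaving out DMSO replicate 3 gave 0.00. FZD1 gave 1.72, 0.594 and 1.93 CPM in DMSO and 0.948, 1.51 and 1.86 CPM in EZH2i. FZD7 gave 2.66, 1.90 and 1.82 CPM in DMSO and 1.76, 1.77 and 2.58 CPM in EZH2i. These related receptors also overlapped, with log2 fold changes of 0.04 for FZD1 and -0.05 for FZD7 whose signs turned when single libraries were left out. FZD8 had 8, 10 and 10 reads in DMSO and 6, 4 and 5 in EZH2i, all lower in EZH2i, with a ratio of 0.568 (95% exact conditional interval 0.282 to 1.10). FZD9 had 3, 6 and 5 reads in DMSO and 7, 11 and 1 in EZH2i, and FZD6 and FZD10 had 0.

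FGF ligands and receptors had no called gene with edgeR, DESeq2 or limma-voom, and 2 of the 5 tested had an unadjusted edgeR p under 0.05, both receptors and both higher in EZH2i, where all tested genes gave 10.9% higher and 8.21% lower. FGF2, the basic FGF made by many cultured cells, gave 22.4, 25.9 and 25.0 CPM in DMSO and 17.7, 24.5 and 23.1 CPM in EZH2i. The treatments overlapped, with EZH2i replicate 1 the lowest (log2 fold change -0.17, with -0.04 when that library and -0.26 when EZH2i replicate 2 was left out), and an exon overlaps NUDT6 on the opposite strand. FGF5, a regulator of the hair cycle, gave 4.54, 4.51 and 3.74 CPM in DMSO and 5.01, 4.04 and 4.15 CPM in EZH2i, which overlapped (log2 fold change 0.05, and -0.0508 without EZH2i replicate 1), and FGF5 shares an exon with CFAP299 on the same strand. FGF22 had 3, 5 and 7 reads in DMSO and 17, 6 and 0 in EZH2i, so that EZH2i libraries were both the highest and the lowest. The secreted ligand genes FGF1, FGF3, FGF7, FGF8, FGF9, FGF10, FGF16, FGF19 and FGF20 had 0 reads, and FGF4, FGF6, FGF17, FGF18, FGF21 and FGF23 had 1 to 5.

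FGFR4 (ENSG00000160867, chr5:177086905-177098144), the receptor that mediates FGF19 signals in liver, had 9, 8 and 10 reads in DMSO and 17, 21 and 30 in EZH2i. As CPM these were 1.41, 0.95 and 1.13 against 2.30, 2.65 and 4.30. All EZH2i libraries were above the DMSO libraries, with EZH2i replicate 3 the highest, and the log2 fold change of 1.40 ± 0.396 (standard error) was just short of the threshold (edgeR adjusted p = 0.0535). It passed without a filter on low counts (0.0281) and without EZH2i replicate 1 (0.0445), in a range of 0.0281 to 0.193 over 11 alternative fits. Only 1 of 3 DMSO libraries was over the filter level for FGFR4, against 3 of 3 EZH2i libraries. FGFR1, the broadly expressed FGF receptor, gave 8.45, 7.24 and 8.17 CPM in DMSO and 11.4, 10.6 and 9.88 CPM in EZH2i. Its treatments did not overlap, and its log2 fold change of 0.42 ± 0.190 (standard error) was not called (edgeR adjusted p = 0.235), and LETM2 overlaps its exon on the opposite strand. FGFR3, known from growth plate cartilage, gave 24.7, 19.7 and 30.6 CPM in DMSO and 24.4, 24.2 and 25.2 CPM in EZH2i. The EZH2i libraries lay inside the DMSO range (log2 fold change -0.03), and FGFR2 had 1 read in all.

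The 58 genes under the filter, summed, gave 5.79, 6.89 and 5.79 CPM in DMSO and 9.07, 10.3 and 5.73 CPM in EZH2i. EZH2i replicate 3 was at the DMSO level and the other EZH2i libraries were above it, so the treatments overlapped, with a ratio of means of 1.36. All 9260 protein-coding genes under the filter gave 841 ± 51.9 CPM in DMSO and 1300 ± 71.3 CPM in EZH2i (SD, n = 3), a ratio of 1.55. Of the 33 ligand and receptor genes under the filter with at least 1 read, 22 (66.7%) had the higher rate in EZH2i, beside 70.2% of such protein-coding genes. Genes with 0 reads in DMSO and at least 1 in EZH2i numbered 12 (36.4%, beside 28.0% of such protein-coding genes), and 4 had the reverse (12.1%, beside 13.9%). No gene of the 12 had more than 4 reads in a library.

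The other genes of the pathways were read from 8 lists with 138 genes, of which 74 were tested. EdgeR called 10 higher (13.5%, beside 3.34% of all tested genes) and 0 lower, with a median log2 fold change of 0.10. The lists were chosen with earlier results of these data known, so these shares are a description and not a test of the pathways. At an unadjusted p under 0.05 there were 19 higher and 2 lower of the 74 (10.9% and 8.21% of all tested genes). DESeq2 called 8 higher and 0 lower (292 and 143 over all genes), and limma-voom called 10 higher and 0 lower (398 and 114 over all genes). Leaving out DMSO replicate 1 or 2 left 6 called higher each time, beside 180 and 189 over all genes. Of the 10, 4 of 27 tested belonged to the WNT lists, 5 of 26 to the TGF-β and BMP lists and 1 of 21 to the FGF lists, with list medians of 0.11, 0.21 and 0.00. The 10 include TRABD2A and NBL1, which entered the test only through their EZH2i libraries.

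PTK7, a catalytically inactive receptor kinase that acts as a WNT co-receptor, gave 9.85, 9.62 and 8.74 CPM in DMSO and 31.4, 26.9 and 23.8 CPM in EZH2i. PTK7 rose with no overlap, at a log2 fold change of 1.54 ± 0.162 (standard error, edgeR adjusted p = 5.42e-05). TRABD2A, a membrane metalloprotease that inactivates WNT ligands, had 3, 1 and 2 reads in DMSO and 18, 27 and 26 in EZH2i, a ratio of 12.5 (95% exact conditional interval 5.49 to 35.3) with an edgeR adjusted p of 0.000932. It was over the filter level in 0 of 3 DMSO and 3 of 3 EZH2i libraries, so it entered the test through the higher treatment. Its exon overlaps TMSB10 on the opposite strand. APC, the scaffold of the complex that destroys β-catenin, gave 54.1, 59.7 and 55.7 CPM in DMSO and 83.6, 83.6 and 74.2 CPM in EZH2i. APC rose at a log2 fold change of 0.51 (edgeR adjusted p = 0.0129, but 0.0743 without DMSO replicate 1 and 0.0601 without DMSO replicate 3, range 0.00662 to 0.0743 over 12 fits), and an unnamed protein-coding gene shares its exon on the same strand. TCF7L2, a DNA-binding partner of β-catenin, gave 18.8, 22.9 and 27.1 CPM in DMSO and 42.1, 37.3 and 31.1 CPM in EZH2i. TCF7L2 rose without overlap at 0.68 (edgeR adjusted p = 0.0203, but 0.109 without DMSO replicate 1 and 0.09 without DMSO replicate 2, range 0.00102 to 0.109 over 12 fits).

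NOTUM, the enzyme that strips the lipid from WNT ligands, gave 6.57, 6.41 and 4.54 CPM in DMSO and 1.90, 1.89 and 4.15 CPM in EZH2i. The treatments did not overlap, though EZH2i replicate 3 was close to the DMSO range. The log2 fold change of -1.14 was not called (edgeR adjusted p = 0.0588, range 0.00539 to 0.197 over 12 fits). NOTUM was called without EZH2i replicate 3 (edgeR adjusted p = 0.0154), without a filter (0.00539) and with the replicate number as a block (0.0398). PORCN, which attaches that lipid, went from 11.2 ± 0.620 to 8.94 ± 0.883 CPM (log2 fold change -0.32, edgeR adjusted p = 0.358). ROR2, a receptor for WNT5A, CTNNB1, which encodes β-catenin, and CSNK1A1, a kinase that primes β-catenin for destruction, overlapped between treatments at log2 fold changes of 0.10, 0.15 and 0.05.

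In the TGF-β and BMP lists, GDF15, a stress-responsive ligand of this superfamily, gave 730, 577 and 633 CPM in DMSO and 770, 1090 and 1000 CPM in EZH2i. GDF15 rose at a log2 fold change of 0.56, the groups just clear of each other (edgeR adjusted p = 0.0199, but 0.114 without DMSO replicate 2, 0.0846 without DMSO replicate 3 and 0.0814 without EZH2i replicate 2, range 6.58e-05 to 0.114 over 12 fits). NBL1, or DAN, a secreted BMP antagonist, had 1, 5 and 4 reads in DMSO and 24, 17 and 19 in EZH2i, a ratio of 6.36 (95% exact conditional interval 3.23 to 13.9) with an edgeR adjusted p of 0.00487. NBL1 too was over the filter level in 0 of 3 DMSO and 3 of 3 EZH2i libraries. NBL1 shares exons on the same strand with MICOS10 and with a MICOS10-NBL1 readthrough gene, so its count is uncertain. LTBP1, which tethers latent TGF-β to the matrix, gave 36.4, 35.1 and 33.5 CPM in DMSO and 51.2, 56.2 and 52.3 CPM in EZH2i. LTBP1 rose with a wide gap between treatments at a log2 fold change of 0.61 ± 0.114 (standard error, edgeR adjusted p = 0.00578).

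The SMAD target gene ID2, an inhibitor of bHLH transcription factors, gave 15.6, 12 and 15.9 CPM in DMSO and 21.8, 25.8 and 26.4 CPM in EZH2i. ID2 rose without overlap at a log2 fold change of 0.77 (edgeR adjusted p = 0.0113, but 0.0755 without DMSO replicate 2, range 0.000825 to 0.0755 over 12 fits). ID3, its close relative, gave 10.9, 15.8 and 10.1 CPM in DMSO and 16, 21.6 and 25.5 CPM in EZH2i, with DMSO replicate 2 nearly level with EZH2i replicate 1. ID3 was called higher at 0.77 (edgeR adjusted p = 0.038), and the call was lost with DESeq2 (0.0522) and without DMSO replicate 1 (0.15), DMSO replicate 3 (0.148), EZH2i replicate 2 (0.0744) or EZH2i replicate 3 (0.123), in a range of 0.00182 to 0.15 over 12 fits. SMAD5, a BMP-activated SMAD, went from 106 ± 8.93 to 129 ± 13.3 CPM without overlap and was not called (log2 fold change 0.28, edgeR adjusted p = 0.166). GDF11, a ligand close to myostatin, TWSG1, a BMP-binding protein, and SKI, a SMAD co-repressor, overlapped between treatments at log2 fold changes of 0.19, -0.05 and 0.15. SARNP overlaps a GDF11 exon on the opposite strand.

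In the FGF lists, EGR1, an immediate early gene downstream of MAP kinase, gave 99.0, 70.9 and 140 CPM in DMSO and 182, 134 and 200 CPM in EZH2i. DMSO replicate 3 lay above EZH2i replicate 2, so the treatments overlapped. EGR1 was called higher at a log2 fold change of 0.74 (edgeR adjusted p = 0.0334), and the call was lost with DESeq2 (0.255) and without DMSO replicate 1 (0.136), DMSO replicate 2 (0.157) or EZH2i replicate 3 (0.0838), in a range of 5.18e-07 to 0.255 over 12 fits. The adaptor genes GRB2 and PTPN11 and the ETS factor gene ETV5 overlapped between treatments, at log2 fold changes of 0.11, -0.19 and -0.22. PTPN11 has an exon overlapped by RPL6 on the opposite strand, and ETV5 shares one with DGKG on the same strand.

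**Figure D5:**
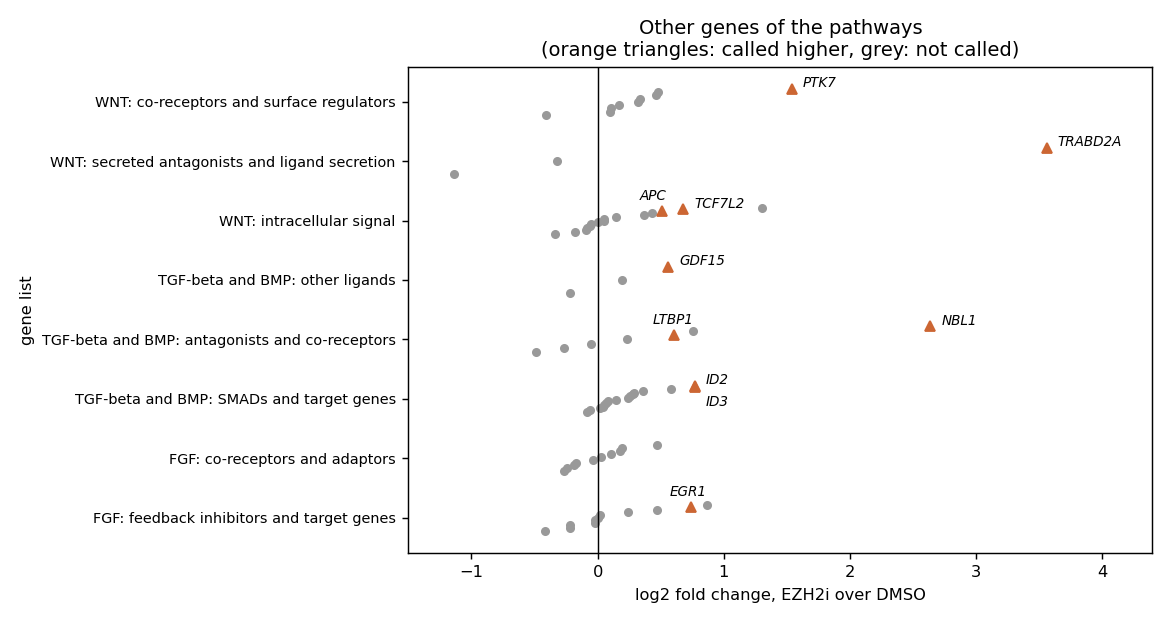
Fitted log2 fold change (EZH2i over DMSO) of the 74 tested genes of the 8 pathway lists, 1 point per gene, with named triangles for the 10 called higher. TRABD2A and NBL1 lie farthest right and rest on 6 and 10 reads in DMSO.

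The label of the cells was checked against marker genes. Of 12 K562 and erythroid markers 11 were tested, and the list summed to 1700 ± 20.8 CPM in DMSO and 1780 ± 19.8 CPM in EZH2i (SD, n = 3), with the most reads from GYPB, a red cell glycophorin. The embryonic globin gene HBZ rose at a log2 fold change of 1.15 (edgeR adjusted p = 6.14e-05). The fetal globin gene HBG2 rose at 0.58 (edgeR adjusted p = 0.0251, but 0.0724, 0.138 and 0.0624 when DMSO replicate 1, 2 or 3 was left out, range 0.000395 to 0.138 over 12 fits). HBG1, its near copy, gave 9.85, 13.2 and 10.6 CPM in DMSO and 4.74, 12.6 and 8.16 CPM in EZH2i, which overlapped (log2 fold change -0.39, not called). Same-strand exons are shared by HBG2 with HBE1, OR51B5 and unnamed protein-coding genes, and by HBZ with HBM. HBG1 shares an exon with an unnamed protein-coding gene that also overlaps HBG2, so the counts of HBG1, HBG2 and HBZ are uncertain. Of 8 fibroblast and stromal markers only COL1A1 was tested, and it rose along with ACVR1C and TGFB1, at 1.25, 1.31 and 2.16 CPM in DMSO and 4.06, 6.18 and 7.88 CPM in EZH2i (log2 fold change 1.91, edgeR adjusted p = 0.00424), being over the filter level in 1 of 3 DMSO and 3 of 3 EZH2i libraries. The summed fibroblast list, most of it COL1A1, gave 1.41, 1.90 and 2.84 CPM in DMSO and 5.82, 6.56 and 9.17 CPM in EZH2i, while LUM and THY1 were at 0 reads, PDGFRA and PDGFRB had 1 read each and COL3A1 had 2. COL1A2, under the filter, had 0, 2 and 2 reads in DMSO and 5, 3 and 3 in EZH2i, with no overlap (ratio 2.91, 95% exact conditional interval 0.864 to 12.6), and DCN had 1, 3 and 4 against 6, 0 and 4, which overlapped. Of 9 lymphoid and monocyte markers 4 were tested, and CD3D and LYZ were called higher. CD3D, a T cell receptor chain, had a log2 fold change of 0.46 (edgeR adjusted p = 0.0309, but 0.148, 0.12 and 0.051 when DMSO replicate 1, 2 or 3 was left out and 0.0519 when EZH2i replicate 1 was, range 0.0169 to 0.148 over 12 fits). LYZ, or lysozyme, had 0.62 (edgeR adjusted p = 0.0426), and its call was lost in all 6 fits with a library left out, at 0.053, 0.124 and 0.16 for DMSO replicates 1, 2 and 3 and 0.0725, 0.0744 and 0.0579 for EZH2i replicates 1, 2 and 3. It was also lost with DESeq2 (0.0882), and its range over 12 fits was 0.0202 to 0.16. That list, in which PTPRC had the most reads over the 6 libraries, summed to 163, 155 and 181 CPM in DMSO and 205, 193 and 183 CPM in EZH2i, with MS4A1 and CSF1R at 0 reads. Of 6 epithelial markers EPCAM alone was tested, at 76.2, 83.5 and 72.7 CPM in DMSO and 64.1, 66.6 and 61.2 CPM in EZH2i. EPCAM was lower without overlap but was not called (log2 fold change -0.28, edgeR adjusted p = 0.156). CDH1 went the other way without overlap, with 0 reads in DMSO and 2, 1 and 1 in EZH2i, and KRT5 and KRT7 had 0 reads. Of 8 megakaryocyte markers ITGA2B alone was tested and was not called (4, 14 and 12 reads in DMSO and 10, 10 and 13 in EZH2i, log2 fold change 0.24), with GP9, GP1BB, PF4 and PPBP at 0 reads. ITGB3, a platelet integrin chain under the filter, had 15, 8 and 17 reads in DMSO and 9, 6 and 6 in EZH2i, which overlapped (ratio 0.556, 95% exact conditional interval 0.312 to 0.966). GP1BB, PF4, PPBP and ITGB3 share exons with other protein-coding genes on the same strand, so their counts are uncertain. The part of these marker genes in the changes of the ligand and receptor genes was not tested.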

How the data were processed

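The samples were 6 QuantSeq 3′ libraries, 3 DMSO and 3 EZH2i, from separate cultures of 1 K562 clone. The authors aligned 50 bp single-end reads to hg38 and deposited raw counts per Ensembl gene (STAR 2.6.0c and HTSeq 0.11.2 in the submitters' processing notes). The kit (FWD) keeps strand and its recommended pipeline was cited, but whether counting used strand was not stated. For named genes with 10 or more reads, overlaps with protein-coding genes are given beside the genes, and non-coding genes overlap exons of ACVR2A, BMP1, COL1A1, CSNK1A1, FGFR1, FZD8, GYPB, ID2, LTBP1, LYZ, NOTUM, SMAD5, TCF7L2, TGFB2 and TGFB3. Rows that name no gene (32.1% to 36.4% of listed reads per library) were left out. A deposited table of the authors' own fold changes and p-values was not used.

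Of 60671 gene identifiers 60401 matched GENCODE 44. Counts were tested with edgeR 4.0.16 (R 4.3.3): filterByExpr with a minimum count of 10, TMM factors, quasi-likelihood F test, two-sided, Benjamini-Hochberg adjustment over all 12364 genes and a threshold of 0.05. CPM used TMM-scaled library sizes. The standard error is the absolute log2 fold change over the square root of F. The steps were tested on simulated counts. Alternatives were DESeq2 1.42.0, limma-voom (limma 3.58.1), DESeq2 size factors in edgeR, other filters and thresholds, the replicate number as a block, a narrower membership and each library left out. Intervals of low counts are exact conditional binomial intervals and cover counting error only. Replicates differed by more than sampling noise (chi-square per degree of freedom 4.56 to 12.7).

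Named were all tested members, members with 10 or more reads, and in the pathway lists each called gene and the 2 tested genes of each list with the most reads. Standard error and adjusted p were printed for called members and the 12 with the smallest p. Marker genes were listed by cell type, and those singled out were chosen after their values were seen. Genes of other biotypes named after a member were kept outside the comparison. The members and lists were chosen with earlier results of these data known. Sequences are from RefSeq (GRCh38.p14), with 63 of 86 members matched by symbol.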

Additional observations from a re-analysis of the deposited data

Results flagged for a closer look

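Of 35 non-coding genes or pseudogenes named after a member gene, 5 had a read and 0 were tested. FZD4-DT, a transcript that starts beside FZD4 and runs the other way, had 1, 2 and 0 reads in DMSO (3 in all) and 3, 5 and 5 reads in EZH2i (13 in all), with no overlap between treatments. It lies outside the comparison of ligand and receptor genes, and it was picked because every EZH2i library was above every DMSO library. The lack of overlap was thus the rule of choice and is no support for a change, and the rule looked only for higher reads in EZH2i. Among all tested genes, 13.3% were higher in EZH2i without overlap. The ratio, from the same reads that picked FZD4-DT, was 4.59 (95% exact conditional interval 1.26 to 25.1, counting error only), and the difference was not tested. BMP2K-DT, the divergent transcript of BMP2K, had 15, 13 and 10 reads in DMSO and 9, 8 and 2 in EZH2i, a ratio of 0.53 (0.289 to 0.942), and its treatments overlapped in CPM.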

How the results depend on the processing

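Over 55 named genes and their alternatives (762 values), 662 kept direction and side of the threshold, 68 lost the call, 5 gained it and 27 turned sign, all 27 among 12 uncalled genes and 0 of 263 values of called genes. At an adjusted p under 0.01, 1 member (BMP2K, the intracellular kinase) was called higher and 0 lower, and over all genes 135 and 13. With an added log2 fold change of at least 1 there were 1 and 0, and 172 and 3. The gene called lower was lost (0 called) with DESeq2, limma-voom and 10 counts in every library. Without a filter, 4 members (ACVR1C, TGFB1, FGFR4 and the kinase BMP2K) were higher and 1 lower with a median of 0.241. Of all genes 579 were then higher and 349 lower with a median of -0.0234. Leaving out 1 library at a time gave 1 to 4 genes higher, 0 to 1 lower, 180 to 412 of all genes higher, 20 to 124 lower and a median of 0.065 to 0.218. The same fits gave log2 fold changes of -0.0764 to 0.42 for ACVR1B, -0.81 to 0.00444 for ACVR2A, -0.242 to 0.17 for BMP10, -0.0508 to 0.11 for FGF5, -0.18 to 0.154 for FGFR3, -0.348 to 0.38 for FZD1, -0.25 to 0.122 for FZD7, -0.046 to 0.09 for TGFBR1, -0.3 to 0.162 for WNT3, -0.0754 to 0.2 for ROR2, -0.132 to 0.16 for CSNK1A1 and -0.16 to 0.0699 for TWSG1. Without a turn of sign they also moved over 1.5 times for BMP1, BMPR2, FGF2, FZD2, FZD4 and WNT10B (given beside the genes), ACVR1 (-0.18 to -0.02), FZD5 (0.04 to 0.22), TGFBR3 (0.01 to 0.12), GDF11 (0.05 to 0.27), GRB2 (0.05 to 0.19), PTPN11 (-0.24 to -0.09) and ETV5 (-0.29 to -0.11). BMP10 was at -0.0251 with DESeq2, -0.00666 with DESeq2 size factors and -0.023 without a filter, and TGFBR1 at -0.00355 with DESeq2 and -0.00963 without a filter. The causes were not tested. Same-numbered libraries did not deviate together (correlations -0.0511, -0.0175 and -0.017), and the replicate block gave 3 genes higher and 1 lower, 450 and 149 over all genes, a median of 0.1, and a call for NOTUM (adjusted p = 0.0398). Without BMP1, BMP2K and FGF11 to FGF14, 2 genes were higher and 1 lower. The 58 of 86 members under the filter had too few reads to enter the test, and 25 of them had 0.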
